A study of Drosophila melanogaster with 2 samples.

Results

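The 8 Hox genes of Drosophila melanogaster, lab, pb, Dfd, Scr and Antp of the Antennapedia complex and Ubx, abd-A and Abd-B of the bithorax complex, were followed through maps of CG32532 binding in whole embryos. They are 8 of 13968 protein-coding genes, and each peak was given to the protein-coding gene whose transcription start site (TSS) lay nearest to its summit. In the main set, 12 of 5325 peaks were nearest to a Hox gene by this rule and 16 had their summit anywhere between the outermost Hox genes of a complex. A peak nearest to a TSS shared by a pair of genes counted for both.

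Embryos were whole animals of 8 to 24 h from a strain with a CG32532-GFP insertion, and the eGFP-tagged CG32532 protein was precipitated with an antibody to GFP and mapped by sequencing (ChIP-seq) in 2 biological replicates. CG32532 is a predicted homeodomain protein of the paired class. Both replicates share the strain, stage and tag, so no condition could be compared and nothing was tested. The tagged transgene is a limit of the model, since the untagged protein was not mapped, and the control named in the labels was not used here.

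Hox genes encode homeodomain transcription factors that give each body segment its identity, and their order along the chromosome follows the order of the segments they act on. They are switched on by segmentation genes in early embryos and kept on or off by Trithorax and Polycomb group proteins, which act through regulatory DNA spread over long introns and intergenic stretches. In the bithorax complex, boundary elements known as Fub, Mcp, Fab-7 and Fab-8 separate the regulatory domains of neighbouring segments. Boundary elements are not part of the gene annotation used here, so no peak was assigned to one.

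The files were peak lists on assembly dm6, in which each peak carries a score made from the irreproducible discovery rate (IDR) and a signal value from the authors' caller. A score of 830 stands for an IDR of 0.01. The replicated set (5325 peaks, the conservative list) rests on both replicates, and the optimal set (7717 peaks on the chromosome arms) is the longer series-level list. Replicate 1 alone gave 3950 peaks on the arms past the same score and replicate 2 gave 6850. Full ranked lists without that threshold held 112406 and 84980 peaks. The unit of the signal is not stated and the depth of the libraries is unknown, so signals are also given as multiples of the replicate's own median over the replicated peaks, which was 67.71 in replicate 1 and 116.1 in replicate 2. In whole embryos, binding in few cells and weak binding in many cells cannot be told apart.

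The annotated order of the genes matched the known complexes. The Antennapedia complex ran from lab to Antp over 337.8 kb (chr3R:6661427-6999228) and the bithorax complex from Ubx to Abd-B over 315.61 kb (chr3R:16656623-16972236). The strongest replicated peak nearest to each bound Hox gene, the strongest of each complex, and the strongest replicated and strongest optimal-only peak within lncRNA:iab8 are shown as 200 bp of the + strand of dm6 centred on the summit, because these windows carry the results that follow. Capitals mark every match, on either strand, to TAATTA (a homeodomain core), TGATNNAT (Hox with its cofactor Exd), GAGAG (GAGA factor), GCCAT (the core for Pho, a Polycomb group DNA-binding protein), TATCGATA (DREF) or AGNNGGCGC (a core for the insulator protein CTCF).
bcd upstream, strongest of the Antennapedia complex, chr3R:6759586-6759785: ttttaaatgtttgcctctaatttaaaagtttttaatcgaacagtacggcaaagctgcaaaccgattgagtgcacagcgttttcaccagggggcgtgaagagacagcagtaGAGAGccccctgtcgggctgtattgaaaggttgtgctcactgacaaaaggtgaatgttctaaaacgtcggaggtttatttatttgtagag
Dfd upstream, chr3R:6791431-6791630: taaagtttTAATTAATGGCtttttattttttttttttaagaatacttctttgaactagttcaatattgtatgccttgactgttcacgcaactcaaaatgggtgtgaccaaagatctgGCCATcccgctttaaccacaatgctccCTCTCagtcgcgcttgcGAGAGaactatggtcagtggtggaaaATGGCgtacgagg
Antp intron, chr3R:6912446-6912645: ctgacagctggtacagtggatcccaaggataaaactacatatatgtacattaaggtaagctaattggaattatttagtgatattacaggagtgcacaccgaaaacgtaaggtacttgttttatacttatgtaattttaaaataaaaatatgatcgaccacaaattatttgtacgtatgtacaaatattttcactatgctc
Ubx intron, chr3R:16704319-16704518: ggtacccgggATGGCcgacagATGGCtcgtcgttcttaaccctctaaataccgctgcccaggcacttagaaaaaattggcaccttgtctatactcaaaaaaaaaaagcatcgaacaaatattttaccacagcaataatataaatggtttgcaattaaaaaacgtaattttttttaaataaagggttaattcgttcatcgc
Glut3 to abd-A, strongest of the bithorax complex, chr3R:16798801-16799000: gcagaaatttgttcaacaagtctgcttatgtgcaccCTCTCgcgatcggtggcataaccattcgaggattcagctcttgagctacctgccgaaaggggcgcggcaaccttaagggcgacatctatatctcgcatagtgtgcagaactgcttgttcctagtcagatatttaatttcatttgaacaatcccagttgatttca
abd-A intron, chr3R:16811838-16812037: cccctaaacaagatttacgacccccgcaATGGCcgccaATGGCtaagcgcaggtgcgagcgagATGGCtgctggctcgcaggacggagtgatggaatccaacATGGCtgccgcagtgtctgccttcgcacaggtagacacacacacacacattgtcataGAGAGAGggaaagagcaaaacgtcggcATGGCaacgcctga
iab8 intron, replicated, chr3R:16869305-16869504: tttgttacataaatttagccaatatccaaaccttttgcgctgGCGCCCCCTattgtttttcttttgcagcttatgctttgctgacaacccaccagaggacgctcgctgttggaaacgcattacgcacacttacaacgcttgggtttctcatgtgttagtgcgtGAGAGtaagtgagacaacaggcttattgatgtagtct
iab8 intron, optimal set, chr3R:16919147-16919346: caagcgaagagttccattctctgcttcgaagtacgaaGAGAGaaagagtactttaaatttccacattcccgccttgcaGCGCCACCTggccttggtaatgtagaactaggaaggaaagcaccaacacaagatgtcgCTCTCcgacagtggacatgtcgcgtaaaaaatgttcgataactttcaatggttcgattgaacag
Abd-B intron, chr3R:16969952-16970151: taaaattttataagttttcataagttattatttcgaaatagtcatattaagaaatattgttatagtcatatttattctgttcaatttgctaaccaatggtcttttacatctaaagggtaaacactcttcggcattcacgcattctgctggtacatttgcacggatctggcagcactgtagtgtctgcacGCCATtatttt

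Peaks were nearest to 5 of the 8 Hox genes and to none of the other 3. In the replicated set Abd-B had 5 peaks, Antp 3, Ubx 2, Dfd 1 and abd-A 1, while lab, pb and Scr had none. Of all protein-coding genes, 25.2% had at least 1 replicated peak by the same rule. The optimal set gave the same count of 5 bound Hox genes with 22 peaks, beside 32.1% of all genes. Replicate 1's own set gave 4 with 7 peaks, beside 21.0%, and replicate 2's own set gave 5 with 25 peaks, beside 29.3%. Every bound Hox gene was also bound in replicate 2's own set, and all but abd-A were in that of replicate 1.

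The Hox genes have long territories, the territory being the DNA nearer to a gene's TSSs than to those of any other protein-coding gene. Territories ran from 19.74 kb for lab to 127.2 kb for Antp, against a median of 4.34 kb over all genes, so a Hox gene had more DNA in which to collect peaks. Per 100 kb of territory, the replicated set gave 8.55 peaks for Abd-B, 4.18 for Ubx, 2.36 for Antp, 2.35 for Dfd and 1.82 for abd-A, beside 3.89 per 100 kb over all arms. In this set Abd-B stood above the genome-wide density, Ubx close to it, and the other bound genes below it. These densities rest on 1 to 5 peaks per gene, so 1 peak more or less can move a gene across that value. The Abd-B value counts 3 overlapping peaks separately, and it is lower where they are counted once. The order changed with the set. In the optimal set Abd-B (10.3), Dfd (7.05) and Antp (6.29) were above the 5.63 of all arms. There abd-A (5.46, from 3 peaks) was close to it and Ubx (4.18) below it. In replicate 2's own set abd-A (10.9), Abd-B (10.3) and Antp (7.08) were above the 5.0 of all arms. There Dfd (4.7, from 2 peaks) was close to it and Ubx (4.18) below it. Antp and Abd-B had at least 3 replicated peaks, as did 2.91% of all genes, and in replicate 2's own set Antp, abd-A and Abd-B did, as did 4.55% of all genes.

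**Figure D1:**
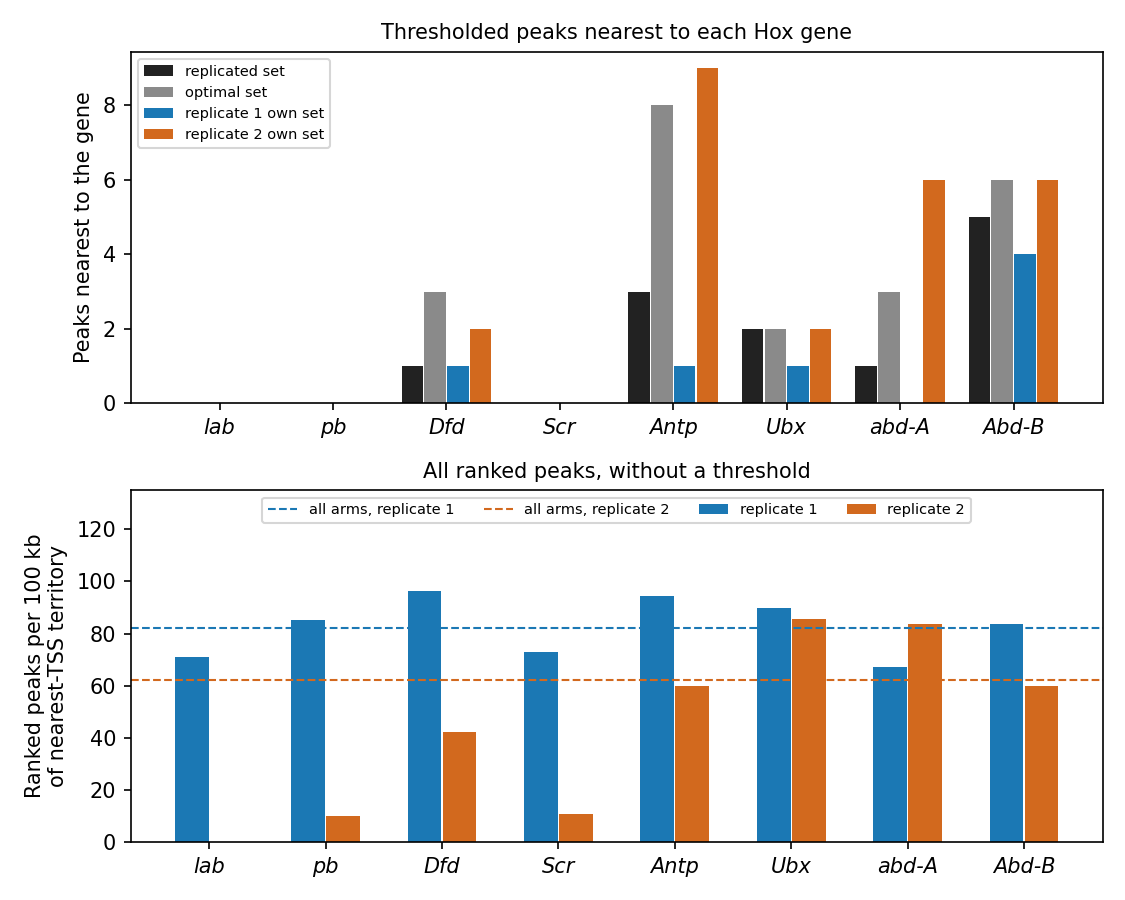
Upper panel: number of peaks (vertical axis) of each thresholded set nearest to each Hox gene. Lower panel: peaks of the full ranked lists per 100 kb of each gene's territory, with dashed lines for all arms. The genes lab, pb and Scr have no thresholded peak in any set, and in replicate 2 they have at most 10.8 ranked peaks per 100 kb against 62.0 over all arms.

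The head genes of the Antennapedia complex were described in their order. The gene lab, which patterns the most anterior Hox-dependent head segment (chr3R:6661427-6678590, minus strand), had no thresholded peak in any of the 4 sets. Its strongest ranked peak in replicate 1 lay 1928 bp from its nearest TSS, with a signal of 46.3 and a score of 607, and replicate 2 listed none nearest to it. For pb, needed for the mouthparts (chr3R:6707800-6742063, minus strand), the strongest ranked peak reached a signal of 29.6 in replicate 1 (score 284) and 29.4 in replicate 2 (score 309). They lay at different places in the pb intron, 13825 and 18185 bp from the TSS. Both genes therefore stayed below the score of 830 in both replicates.

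Dfd, which specifies the jaw-forming segments of the head (chr3R:6791836-6802428, plus strand), was the only Hox gene with a replicated peak within 500 bp of its TSS. The summit lay 305 bp upstream (chr3R:6791351-6791710). Its signal was 51.6 in replicate 1 and 87.4 in replicate 2. As multiples of the median these are nearly equal (0.758 ± 0.00676, SD, n = 2), below the median peak in both. The window shown for this peak holds 1 TAATTA, 2 GAGAG and 3 GCCAT. The optimal set added a pair of peaks 24662 and 26879 bp downstream of the Dfd TSS, between Dfd and Scr. The nearer lay 119 bp from a TSS of lncRNA:CR42651, and the farther was also in replicate 2's own set.

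Scr, which acts in the labial segment and the anterior thorax (chr3R:6823120-6849981, minus strand), had no peak in any thresholded set. The strongest ranked peak was 40.7 in replicate 1, 1753 bp from a TSS, and 18.5 in replicate 2, 6514 bp from a TSS. Scores were 565 and 144, so both fell short of 830. No ranked peak of either replicate lay within 500 bp of its 2 annotated TSSs.

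The ranked lists of the replicates differed over the genes with no thresholded peak. Thresholded peaks are also part of the ranked lists, so these counts are not independent of that choice of genes. Replicate 1 listed 14 peaks nearest to lab, 17 to pb and 27 to Scr, which is 70.9, 85.0 and 73.0 per 100 kb of territory, beside 82.0 over all arms. Replicate 2 listed 0, 2 and 4 peaks, or 0, 10 and 10.8 per 100 kb, beside 62.0 over all arms. The stretch from lab to pb (80.64 kb) held 58 ranked peaks in replicate 1 and 6 in replicate 2. Over the whole Antennapedia complex the ranked lists held 94.1 per 100 kb in replicate 1 and 29.0 in replicate 2. Over all protein-coding genes, 18.2% had no ranked peak of replicate 2 nearest to them, and 12.6% of the 1589 genes whose territory is at least as long as that of lab. Over Ubx and abd-A replicate 2 listed 85.7 and 83.7 ranked peaks per 100 kb, more than over all arms. Over the other bound genes it listed fewer than over all arms, with 59.9 for Abd-B, 59.7 for Antp and 42.3 for Dfd. The part that depth or the caller's settings have in this difference was not tested.

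Antp, which specifies the middle thorax (chr3R:6896253-6999228, minus strand), had 3 replicated peaks, all inside its long introns. The strongest (chr3R:6912454-6912646) lay 20294 bp downstream of the nearest TSS, with a signal of 106 in replicate 1 and 190 in replicate 2. Both replicates placed it well above their median (1.6 ± 0.056, SD, n = 2), and it ranked 1462 of 5325. Its window holds none of the motifs searched, while that of its replicate 1 summit, at 6912453, holds 1 GCCAT and 1 AGNNGGCGC. The next (chr3R:6920021-6920380) lay 12639 bp downstream of the same TSS, with 47.4 in replicate 1 and 120 in replicate 2 (0.866 ± 0.236). It was in replicate 2's own set, and in replicate 1 its score was 98. The threshold was thus passed in replicate 2 alone.

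The remaining Antp peak (chr3R:6973272-6973631) lay 15082 bp upstream of a TSS that Antp shares with the overlapping gene CG46458, and counted for both. Its signal was 44.8 in replicate 1 and 61.6 in replicate 2 (0.596 ± 0.0929), the lowest mean multiple in the complexes. Neither replicate's own set held it. The optimal set raised Antp to 8 peaks and replicate 2's own set to 9, while replicate 1's own set kept 1. The 9 of replicate 2 included a summit 232 bp upstream of an Antp TSS, with a signal of 52.1 and a score of 853. In replicate 1 the strongest ranked peak within 500 bp of that TSS had a signal of 23.8 and a score of 40. A weak peak 1578 bp upstream of the outermost Antp TSS, just outside the complex, also belonged to replicate 2 only (signal 47.4).

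The other peaks of the Antennapedia complex lay at genes that are not Hox genes. The strongest of the complex (chr3R:6759585-6759795) was 220 bp upstream of bcd, the gene for the anterior morphogen Bicoid, which lies between pb and Dfd. Its signal was 128 in replicate 1 and 301 in replicate 2, more than the median peak in both (2.24 ± 0.494, SD, n = 2), and it ranked 799 of 5325. A further peak (chr3R:6762847-6763206) lay 377 bp upstream of a TSS of Ama, which encodes the secreted cell adhesion protein Amalgam, with 57.5 in replicate 1 and 60.1 in replicate 2 (0.683 ± 0.234). It passed the threshold in neither replicate's own set. Of the 4 homeobox genes of the complex that are not Hox genes (zen, zen2, bcd and ftz), bcd alone was bound, in all 4 sets. That is 25.0%, close to the 25.2% of all protein-coding genes in the replicated set. Over the 4 sets the share of all genes ran from 21.0 to 32.1%.

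Ubx, which specifies the posterior thorax and the most anterior abdomen (chr3R:16656623-16734426, minus strand), had 2 replicated peaks 1412 bp apart in its large intron. The stronger (chr3R:16704239-16704598) lay 30007 bp downstream of the TSS, with 66.4 in replicate 1 and 131 in replicate 2 (1.06 ± 0.107, SD, n = 2). Both replicates placed it close to the median peak, and its window holds 2 GCCAT. Its neighbour (chr3R:16702827-16703186), 31419 bp downstream, had 39.6 in replicate 1 and 118 in replicate 2 (0.8 ± 0.304). Only replicate 2's own set held it, and the score in replicate 1 was 593. At the Ubx TSS itself the ranked lists gave signals of 21.3 and 37.6, with scores of 81 and 376.

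abd-A, which acts in the anterior and middle abdomen (chr3R:16807214-16830049, minus strand), had 1 replicated peak in an intron (chr3R:16811758-16812117). It lay 16167 bp downstream of the nearest TSS, with 48.7 in replicate 1 and 68.7 in replicate 2 (0.655 ± 0.0893, SD, n = 2). Both values are below the median. It passed in replicate 2 alone, and its score in replicate 1 was 787. Its window holds 5 GCCAT and 2 GAGAG, the most GCCAT of the 16 windows in the complexes. Replicate 2's own set gave abd-A 6 peaks and the optimal set 3. The strongest of these (signal 165 in replicate 2 and 27.9 in replicate 1) lay 27151 bp upstream of abd-A by its replicate 2 summit and 858 bp from the annotated start of mir-iab-8, a microRNA gene of the complex.

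Abd-B, which specifies the posterior abdomen and the genital segments (chr3R:16927212-16972236, minus strand), had the most peaks of the 8 genes in the replicated set and in that of replicate 1, while Antp had more in the other sets. The replicated peak nearest to its upstream end (chr3R:16969872-16970231) lay 1478 bp upstream of an internal TSS, with 74.2 in replicate 1 and 111 in replicate 2 (1.03 ± 0.0998, SD, n = 2). Another (chr3R:16948648-16949007), 4555 bp upstream of an internal TSS, had 50.4 and 75.9 (0.699 ± 0.0643). Both replicates' own sets held both peaks.

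A chain of 3 overlapping peaks in Abd-B lay from 1830 to 2340 bp downstream of an internal TSS. The outer summits (chr3R:16957895-16958021 and chr3R:16958271-16958630) had 66.6 and 116 in replicates 1 and 2 (0.992 ± 0.0114) and 70.3 and 58.4 (0.77 ± 0.378), and replicate 2 was thus lower than replicate 1 at the latter. The peak between them overlaps both neighbours, so the replicate values of its neighbours stand in for its own. Its own signal in the replicated set was 80.0 with a score of 925, and the optimal set had no summit of its own there. Counted once, the chain leaves Abd-B with 3 replicated peaks, as many as Antp, and the whole complex with 8. The optimal set also held a summit 168 bp upstream of the most downstream Abd-B TSS, with 12.8 in replicate 1 and 61.9 in replicate 2.

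The strongest peaks of the bithorax complex lay outside the 3 Hox genes. The strongest (chr3R:16798787-16799026) was intergenic, between Glut3 and abd-A, 29204 bp from the nearest Hox TSS and 10590 bp downstream of the TSS of Glut3, a glucose transporter gene. Its signal was 191 in replicate 1 and 401 in replicate 2 (3.14 ± 0.453, SD, n = 2), and it ranked 427 of 5325. The second strongest (chr3R:16869291-16869503) lay within the introns of MSAmiP, a micropeptide gene, and of lncRNA:iab8, a noncoding RNA of the region between abd-A and Abd-B. Its signal was 110 in replicate 1 and 270 in replicate 2 (1.98 ± 0.494), and it ranked 1073. Both stood above the median in both replicates and were in all 4 sets.

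The optimal set added 9 further peaks to the bithorax complex. The strongest (chr3R:16919193-16919330), in an intron of lncRNA:iab8 and 14995 bp downstream of the nearest Abd-B TSS, had a signal of 210 in replicate 2, and no peak of replicate 1's ranked list overlapped it. A peak at chr3R:16837843-16838202, 7974 bp upstream of abd-A, likewise had no counterpart in replicate 1 and 98.2 in replicate 2. Added peaks in lncRNA:bxd, the noncoding RNA gene between Ubx and abd-A, lay 2599, 12877 and 18208 bp from the TSS of CG31275, the nearest protein-coding gene. Their signals were 23.2, 11.9 and 23.2 in replicate 1 and 111, 92.1 and 49.5 in replicate 2. Replicate 2 was higher at each of these 3. An added peak in an intron of lncRNA:iab8 (chr3R:16886523-16886882) went the other way, with 45.7 in replicate 1 and 38.7 in replicate 2.

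**Figure D2:**
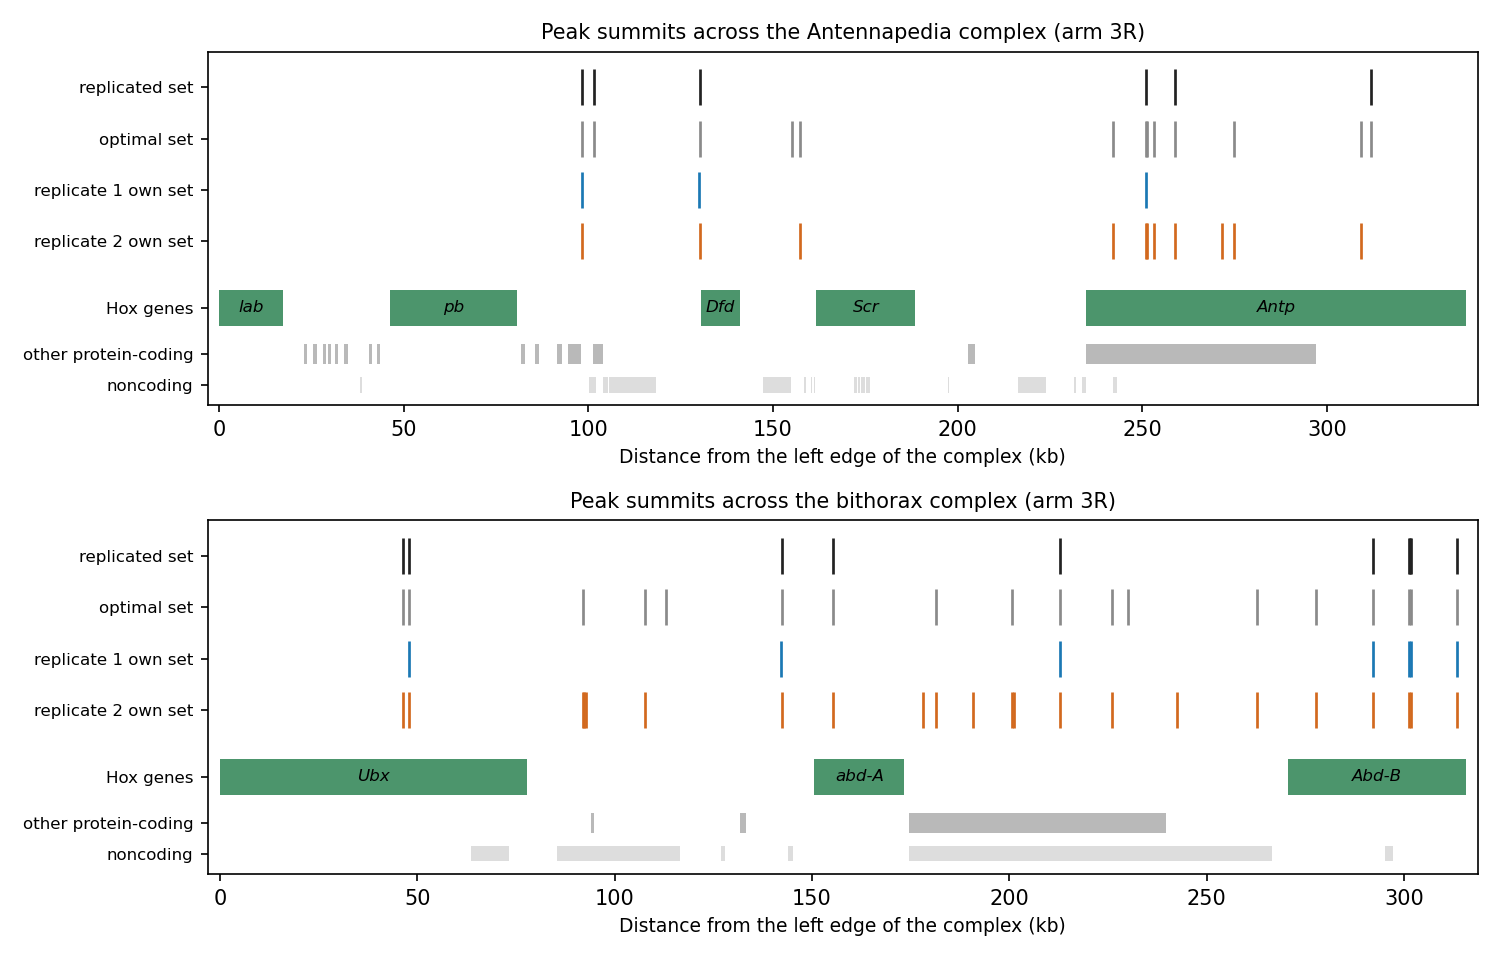
Summits of the 4 peak sets (ticks) along each complex, with distance from its left edge in kb on the horizontal axis and boxes for Hox genes, other protein-coding genes and noncoding genes. The stretch from lab to pb and the Scr gene carry no thresholded peak, and replicate 2 adds summits to Antp and to the region between abd-A and Abd-B that replicate 1 lacks.

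Counted over the whole complexes, replicated peaks were sparser than over all arms. The Antennapedia complex held 6, or 1.78 per 100 kb, and the bithorax complex 10, or 3.17, beside 3.73 for arm 3R and 3.89 for all arms. Replicate 1's own set gave 3 (0.888 per 100 kb) and 7 (2.22), beside 2.88 over all arms. Replicate 2's own set gave 11 (3.26) and 22 (6.97), beside 5.0 over all arms. The optimal set gave 13 (3.85) and 18 (5.7), beside 5.63. The Antennapedia complex was below the genome-wide density in all 4 sets. The bithorax complex was below it in the replicated and replicate 1 sets and close to it in the optimal set. Only replicate 2's own set put the bithorax complex clearly above it. The 22 peaks of replicate 2 count overlapping peaks separately, among them a chain in lncRNA:bxd. Merged over the 4 sets, they lie in 19 separate stretches.

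**Figure D3:**
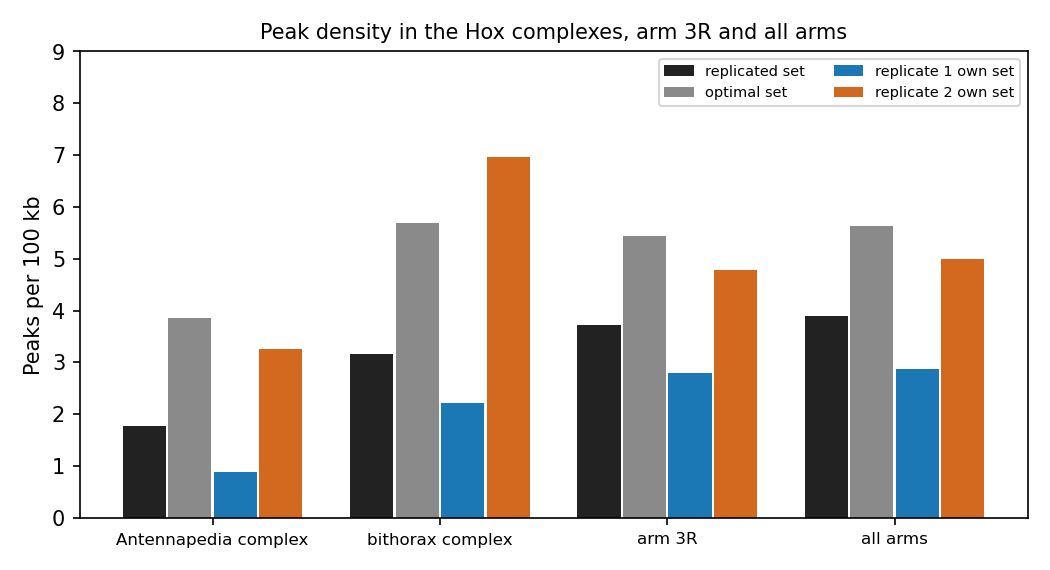
Peaks per 100 kb (vertical axis, from 0) of the 4 sets in each Hox complex, on arm 3R and on all arms. The bithorax complex reaches 6.97 in replicate 2 and 2.22 in replicate 1, and the Antennapedia complex lies below the all-arms value in each set.

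The replicates thus differed in how many peaks they placed in the complexes. Replicate 2 had 3.67 times as many as replicate 1 in the Antennapedia complex and 3.14 times as many in the bithorax complex, beside 1.73 times over all arms. Merged over the 4 sets, the complexes held 34 separate bound stretches, 13 and 21. Both replicates' own sets held 9 of them, replicate 2 without replicate 1 held 20, and replicate 1 without replicate 2 held 0. The 20 depend on replicate 2, which also had more peaks genome-wide. Of the 15 optimal-set peaks that overlapped no replicated peak, replicate 2's own set held 12 and that of replicate 1 none. At these 15, replicate 1 signals ran from 10.9 over a median of 26.5 to 45.7 where a ranked peak was found (13 of 15), and replicate 2 signals from 38.7 over 92.1 to 210.

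The 16 replicated peaks were then set beside the whole set for how far the replicates agreed. Both replicates' own sets held 11 (68.8%, beside 63.0% of all replicated peaks), replicate 2's alone held 3, and neither held 2. The 11 include the middle peak of the Abd-B chain, which counts only through overlap with peaks at its neighbours. With at least 50% overlap both held 10. Replicate 1 signals ran from 39.6 over a median of 66.5 to 191, and those of replicate 2 from 58.4 over 116 to 401. The median multiple was 0.929, beside 0.999 over all replicated peaks, and the highest was 3.14, beside 25.2. The log2 ratio of the multiples, replicate 1 over replicate 2, had an SD of 0.48 over the 16 peaks and 0.55 over all. In ranks, 7 of the 16 were in the stronger 50% of the set and 1 in the strongest 10%.

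**Figure D4:**
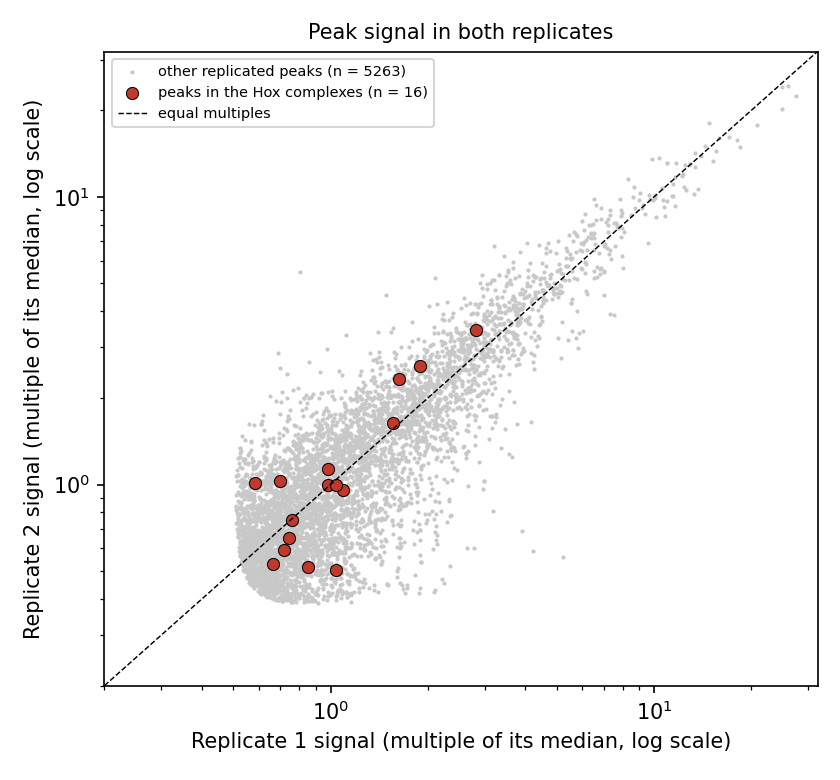
Signal of each replicated peak in replicate 1 and replicate 2 as multiples of the replicate's median (both axes logarithmic), for the 16 peaks in the Hox complexes (red) and 5263 others found in both ranked lists (grey). The red points lie within the grey cloud, from 0.596 to 3.14 as means of both replicates.

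The complex peaks lay mostly away from gene starts. Of the 16 summits, 3 lay within 500 bp of a TSS of any gene (18.8%, exact 95% binomial interval 4.05 to 45.6%), beside 56.1% of all replicated peaks. These 3 were at bcd, Ama and Dfd, and none of the 10 bithorax summits was (exact 95% interval 0 to 30.8%). The intervals treat peaks as independent and cover counting error only. Apart from the 3 near a TSS, introns held 12 of the 16 (75.0%, beside 30.1%), 1 was intergenic and none lay in an exon. Whether the 3 summits near a TSS lie in exons was not counted. The median distance to a protein-coding TSS was 7572.5 bp, beside 367 bp, and 8 summits (50%, beside 7.17%) were more than 10000 bp away. In the replicates' own sets, 2 of 10 and 4 of 33 complex summits lay at a TSS, beside 58.9% and 52.8% of all. The wide spacing of gene starts in the complexes moves with these values, and its part in them was not tested.

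Motifs were counted in the 200-bp windows around the 16 summits. GAGAG was in 10 windows (62.5%), beside 25.2% of all replicated windows, 25.5% of the 518 replicated intron windows beyond 5000 bp of a TSS, and 23.4% of 200-bp tiles of the complexes. GCCAT was in 9 (56.2%), beside 28.7%, 30.1% and 40.2%. The GAGAG share was above all 3 references, also in the own sets of replicate 1 (60.0%, beside 23.3% of its windows) and replicate 2 (60.6%, beside 28.9%). For GCCAT these shares were 80.0%, beside 28.5%, and 51.5%, beside 27.9%. By complex, GCCAT was in 7 of the 10 replicated bithorax windows (70.0%, beside 44.7% of tiles of that complex). In the Antennapedia complex it was in 2 of 6 (33.3%, beside 36.0% of its tiles). There the own sets of replicates 1 and 2 had it in 2 of 3 and 2 of 11 windows. The median GC content was 40.0% in the complex windows and 37.0% in all.

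TAATTA, the homeodomain core, was in 3 of the 16 windows (18.8%), beside 15.2% of all. These are the windows at Ama, at Dfd and of the Abd-B chain summit nearest to the TSS. TGATNNAT and TATCGATA were in none of the 16, beside 12.4% and 4.51% of all windows. AGNNGGCGC was added after the windows had been read. It was in 1 of the 16 (6.25%, beside 4.06%), the lncRNA:iab8 window shown, and in the optimal set in 6 of 18 bithorax windows (33.3%) and 0 of 13 Antennapedia windows, beside 4.11% of all optimal windows and 1.84% of tiles of the bithorax complex. By their own summits, the set of replicate 1 had it in 1 of 3 Antennapedia windows, at Antp, and that of replicate 2 in 0 of 11. In the bithorax complex the set of replicate 1 had it in 1 of 7 windows and that of replicate 2 in 6 of 22. Over all windows of these sets the shares were 4.28% and 4.25%. The 6 of the optimal set lie in lncRNA:bxd, at 1 summit, and in lncRNA:iab8, at 5, among them both iab8 windows shown.

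**Figure D5:**
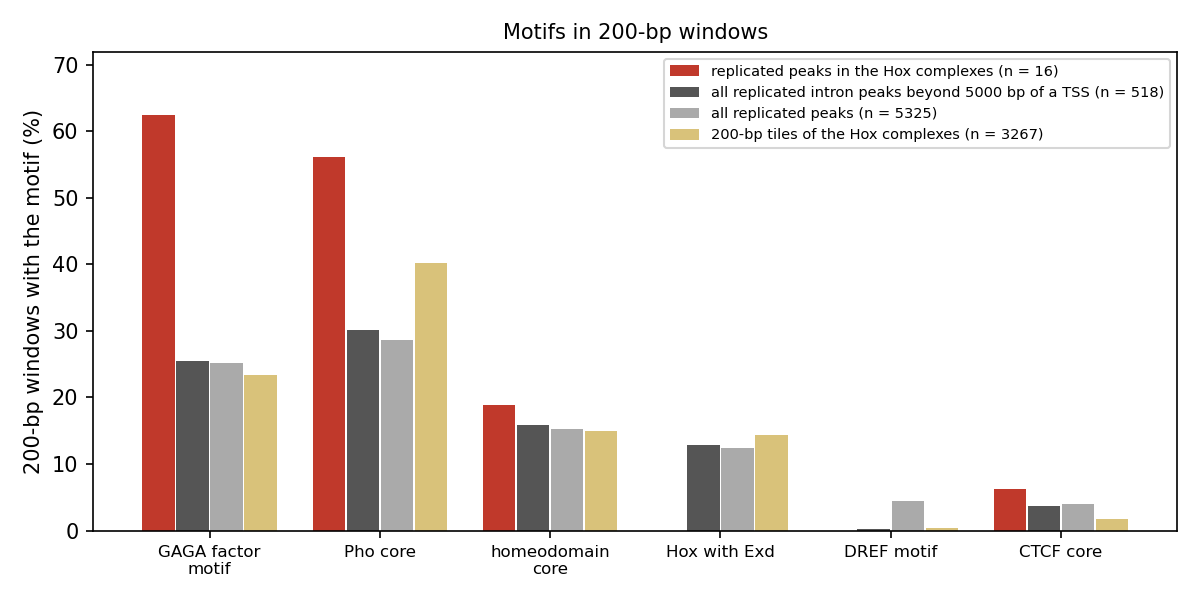
Percentage of 200-bp windows (vertical axis, from 0) that hold each motif on either strand, for the 16 replicated peaks in the Hox complexes, replicated intron peaks beyond 5000 bp of a TSS, all replicated peaks and tiles of the complexes. The complex peaks stand at 62.5% for the GAGA factor motif and 56.2% for the Pho core, beside 25.2% and 28.7% of all replicated peaks. The tiles stand at 23.4% and 40.2%. Both complexes are pooled, and the Pho core share was 70.0% in the bithorax and 33.3% in the Antennapedia complex.

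Genes that regulate Hox genes or work with them were counted by the same rule. Of 29 Polycomb and Trithorax group genes, which keep Hox genes off or on, 13 were bound in the replicated set (44.8%, beside the 25.2% of all genes), and their median territory was 5.54 kb. The strongest were ph-p, a Polycomb complex subunit, with 1151 in replicate 1 and 1876 in replicate 2 (16.6 ± 0.593, SD, n = 2), and Trl, the gene for GAGA factor, with 667.5 and 1569 (11.7 ± 2.59). Psc, another Polycomb complex subunit, followed with 431 and 926 (7.17 ± 1.14). Each of these exceeded the highest multiple in the Hox complexes, 3.14. In all 4 sets 13 or 14 of the 29 were bound. The shares were 44.8% in replicate 1's own set, beside 21.0% of all genes, and 48.3% in that of replicate 2, beside 29.3%. In the optimal set it was 48.3%, beside 32.1%.

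Of 13 segmentation regulators of Hox genes, 3 were bound (23.1%), close to the 25.2% of all genes. Their median territory was 19.9 kb, beside 4.34 kb over all genes, so they had more DNA in which to collect peaks. The bound ones were hry (hairy, a pair-rule repressor, 1.33 ± 0.13, SD, n = 2), hb (hunchback, a gap gene, 1.1 ± 0.548) and odd (a pair-rule gene, 0.62 ± 0.121). The hb peak was in replicate 2's own set only, and the strongest odd peak was in neither replicate's own set. Of 6 Hox cofactors and partners, 4 were bound (66.7%, beside 25.2% of all genes; median territory 55.1 kb), led by hth, whose protein brings Exd into the nucleus, with 201 in replicate 1 and 287 in replicate 2 (2.72 ± 0.349). The zinc finger genes tio (1.07 ± 0.0506) and disco (0.886 ± 0.0829) followed. The gene exd itself was not bound in the replicated set.

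Of 14 genes known as Hox targets, 8 were bound in the replicated set (57.1%, beside 25.2% of all genes; median territory 27.8 kb). The strongest were ems, a head gap gene with a later role in the posterior spiracles (2.21 ± 0.221), Dll, the limb gene repressed in the abdomen by Ubx and abd-A (1.79 ± 0.836), and fkh, which Scr activates in the salivary gland (1.27 ± 1.19). The fkh replicates differed, with 143 in replicate 1 and 50.1 in replicate 2. In replicate 1's own set 6 of these targets were bound, beside 21.0% of all genes, and in that of replicate 2 there were 12, beside 29.3%.

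Other homeobox complexes served as like regions. The NK complex (chr3R:21378977-21557182) held 6 replicated peaks (3.37 per 100 kb), the Iroquois complex 2 (1.54) and the engrailed complex 0, so the Hox complexes, at 1.78 and 3.17, lay within their range in that set. In the optimal set these like regions had 3.72 to 4.49 per 100 kb and in replicate 2's own set 1.54 to 3.93. With overlapping peaks counted separately, the bithorax complex was above them in both, at 5.7 and 6.97. The Antennapedia complex, at 3.85 and 3.26, was within their range. In replicate 1's own set the bithorax complex (2.22) and the Antennapedia complex (0.888) were both within it. There the NK complex had 2.24 and the Iroquois and engrailed complexes 0. Of the 11 genes of these like regions (median territory 24.1 kb) 4 were bound in the replicated set, beside 25.2% of all genes. They were led by tin, the heart gene of the NK complex (3.35 ± 0.849), lbe (1.03 ± 0.523) and mirr (0.773 ± 0.339). In the optimal set 9 of the 11 were bound, beside 32.1% of all genes.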

How the data were processed

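ChIP-seq peaks of eGFP-tagged CG32532 were read from the deposited dm6 lists of 2 biological replicates. Per the file headers, the authors ranked peaks by IDR. The sources used here name no aligner, caller or version. The deposited score is the IDR on a scale capped at 1000. The deposited signal is the strength the authors' caller gave, with no stated unit. The series-level lists hold values of calls on pooled replicates, and each replicate's lists were called on it alone. A further 16 unnamed columns of per-replicate values were not used. Peaks off the chromosome arms (7 of replicate 1, 1 of the optimal set) were left out.

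Genes came from Ensembl release 115 without transposable elements, and windows from the RefSeq genome of the same build. A summit was classed as TSS within 500 bp of one of any gene, otherwise by exon, intron or intergenic position. The signal in a replicate is that of the strongest overlapping peak (at least 1 bp) of its ranked list. Gene spans were taken from the annotation, and a peak belonged to a complex by its summit. For h and calypso the current names hry and caly were used. Named were all 8 members, the other genes of the complexes nearest to a replicated or optimal peak, and the 3 bound genes with the strongest replicated peak in each list. The members, lists and motifs were chosen with earlier results of these data known, and AGNNGGCGC was added after reading the windows. Assignment and overlap functions were tested on simulated data. Alternatives were the peak set, a replicate left out, stronger peaks only, distance, gene types, span edges, TSS distance, windows, signal choice and overlap. Analyses ran in Python 3.11.15 with numpy 2.4.6, pandas 2.3.3 and matplotlib 3.10.9.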

Additional observations from a re-analysis of the deposited data

How the results depend on the processing

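Of 47 alternatives to the counts and shares above, 18 left the value within the set margin (1.5 times for counts, 1 SD between replicates for shares and medians) and 29 moved it. The 5 bound Hox genes became 3 with only the stronger 50% of peaks, 2 with summits within 10000 bp of the TSS and 3 when noncoding genes could also take peaks. No share of all genes is given under these rules, so these counts cannot be read as above or below it. With 1 replicate left out 4 to 5 were bound, beside 21.0 and 29.3% of all genes. The 12 peaks nearest to a Hox gene became 22 in the optimal set, 4 with the stronger peaks, 6 within 10000 bp and 7 with noncoding genes, and 7 to 25 with 1 replicate left out. The 6 Antennapedia peaks became 13 (optimal) or 2 (stronger peaks), with 3 to 11 by replicate, and the 10 bithorax peaks 18 or 5, with 7 to 22. The lower ends rest on replicate 1 and the upper on replicate 2. The share at a TSS fell to 6.25% with TSSs within 250 bp, since the summits at Ama and Dfd lie farther out, and ran from 12.12 to 20.0% by replicate. The median multiple of 0.9292 became 0.8966 (optimal), 0.9505 (stronger peaks), 0.8385 (nearest summit) and 0.9504 (pooled signal), and ran from 0.8439 to 0.9598 over each replicate's own set. Over the same 16 peaks the median was 0.982 in replicate 1 and 1.0 in replicate 2. Of 11 peaks held by both replicates, 7 were among the stronger peaks, and 10 were held with at least 50% overlap. TAATTA was in 22.58% of optimal windows, 0 of the stronger ones, 0 of 100-bp windows and 25.0% of 400-bp windows, and in 18.18 to 20.0% by replicate. Counting overlapping peaks once, a choice made after seeing the data, gave 6, 8 and 10 peaks for the Antennapedia complex, the bithorax complex and the Hox genes. For values that moved with no construction that explains it, the cause was not tested. No paired analysis was possible because the labels hold 1 group. Read depth is unknown, so a missing peak is not shown to be absent binding.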

Other observations

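In replicate 2's own set a pair of peaks in lncRNA:bxd had signals of 8.22 and 2.80, at 0.085 and 0.0289 times the median of that set, while their scores were 1000, the cap. They lie beside a peak of 111 in the same intron, and the deposited score alone does not set them apart from the strongest peaks.

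Peaks of the full ranked lists were also read at TSSs of the bithorax Hox genes. Within 500 bp of the Ubx TSS the multiples were 0.314 in replicate 1 and 0.324 in replicate 2. At the abd-A TSSs replicate 1 listed none, and replicate 2 reached 0.444. At the most downstream Abd-B TSS the multiples were 0.189 and 0.533, and the replicate 2 peak there passed the threshold with a score of 930. The other peaks named here did not pass it. Each of these multiples lies below the median replicated peak.

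In the pooled ranked lists, 31 and 16 peaks in the complexes had a score of at least 830, and each was in the optimal or the replicated set.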
